A study of Mus musculus with 4 samples.

Results

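The telomerase RNA Terc and 9 genes for proteins of telomerase or of the telomere cap were followed in sorted cells of mouse 4T1 tumours. The 10 genes are Terc, Tert, Dkc1, Nop10, Nhp2, Gar1, Terf1, Terf2, Pot1a and Acd, out of 37074 gene names on the array, and 20 of its 56605 probes carry their names. They were chosen by name, around the observation that Terc was higher in ALDH-high than in ALDH-low cells at both times of day. The ALDH differences of Terc are therefore a description and carry no test. All 10 genes had at least 1 probe well above background on all 4 arrays, as had 15 of the 20 probes.

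4T1 is a mouse mammary carcinoma cell line, implanted here in BALB/C mice that received no treatment. Cells of the tumours were sorted with the ALDEFLUOR kit, in which the activity of aldehyde dehydrogenase (ALDH) makes cells fluoresce, and RNA of each fraction was hybridised to a one-colour Agilent array. The 4 groups, with 1 array each, were ALDH-high cells at zeitgeber time 0 (ZT0), ALDH-low cells at ZT0, ALDH-high cells at ZT12 and ALDH-low cells at ZT12. Zeitgeber time counts hours in the light cycle of the animals. How many mice gave each fraction, and their age and sex, are not given in the sources used here. Each time had a slide of its own, slide 1 for ZT0 and slide 2 for ZT12, and the effect of time and that of the slide cannot be told apart. Within each slide the arms lay at different array positions (ALDH-high at position 1_2 at ZT0 and at position 1_1 at ZT12), so arm and position cannot be told apart within a time.

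Telomerase lengthens chromosome ends by copying a short template in its RNA, Terc, with the reverse transcriptase Tert. The RNA ends in an H/ACA domain, which is bound by dyskerin (Dkc1) with Nop10, Nhp2 and Gar1, proteins that also serve the small nucleolar RNAs guiding pseudouridylation. Shelterin is the protein cap of the telomere: Terf1 and Terf2 bind its double-stranded repeats, Pot1a binds the single-stranded overhang, and Acd (TPP1) joins Pot1a to the rest and recruits telomerase. In humans TERT is silent in most adult tissues and active in stem cells and most tumours, whereas the RNA is made more widely.

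The probes on which the results turn are printed first, since several genes were read by probes that disagreed. The Terc probe lies at mm9 chr3:96218697-96218756 on the minus strand and starts at the first base of the annotated RNA, so it contains the template. Its capitals mark a run of the C-rich telomere repeat, CCTAACCCT, which the enzyme copies into telomeric DNA. Tert probe 1 (AK133783, mm9 chr13:73767063-73767122, plus strand) is annotated to a cDNA clone, and probe 2 (NM_009354, mm9 chr13:73779460-73779519, plus strand) and probe 3 (NM_009354, mm9 chr13:73786429-73786488, plus strand) to the RefSeq transcript. Pot1a probe 1 (NM_133931, mm9 chr6:25693942-25694001, minus strand) and probe 3 (ENSMUST00000136089, mm9 chr6:25748596-25748655, minus strand) gave opposite differences. No exon, intron or UTR was assigned, because an mm9 annotation was not used here.
Terc: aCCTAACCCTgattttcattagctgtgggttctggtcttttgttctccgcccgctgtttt
Tert probe 1: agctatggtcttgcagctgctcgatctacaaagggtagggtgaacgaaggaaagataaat
Tert probe 2: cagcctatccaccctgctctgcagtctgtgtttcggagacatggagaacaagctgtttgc
Tert probe 3: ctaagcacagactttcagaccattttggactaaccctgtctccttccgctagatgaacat
Pot1a probe 1: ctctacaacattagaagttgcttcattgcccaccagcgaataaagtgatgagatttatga
Pot1a probe 3: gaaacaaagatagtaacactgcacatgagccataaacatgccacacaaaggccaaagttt

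Values are log2 of the processed signal minus log2 of the 75th percentile of the same array, called the scaled log2 level, and differences are in log2 units. A gene was counted as higher or lower when its difference was at least 1 log2 unit (2-fold) with the probe well above background on both arrays. The 75th percentile was 300.6 signal units for ZT0 ALDH-high, 213.6 for ZT0 ALDH-low, 156.3 for ZT12 ALDH-high and 458.8 for ZT12 ALDH-low, and between 55.8% and 60.6% of spots were well above background. No spot was saturated. The signal errors given below are those of the scanner software for 1 spot and hold no spread between animals, and precision is limited by there being 4 arrays. In RNA of sorted cells, fewer cells of a type and less RNA per cell cannot be told apart.

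Terc was higher in ALDH-high cells at both times, and its signal was low on every array. The processed signal was 74.3 ± 10.2 (scanner error) in ZT0 ALDH-high cells, against 20.1 ± 4.03 in ZT0 ALDH-low cells. It was 25.3 ± 4.43 in ZT12 ALDH-high cells, against 31.2 ± 4.84 in ZT12 ALDH-low cells. All 4 signals passed the background flag, the lowest signal to do so being between 13.4 and 15.1 on these arrays. Before scaling, therefore, ALDH-high was above ALDH-low at ZT0 and below it at ZT12.

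**Figure D1:**
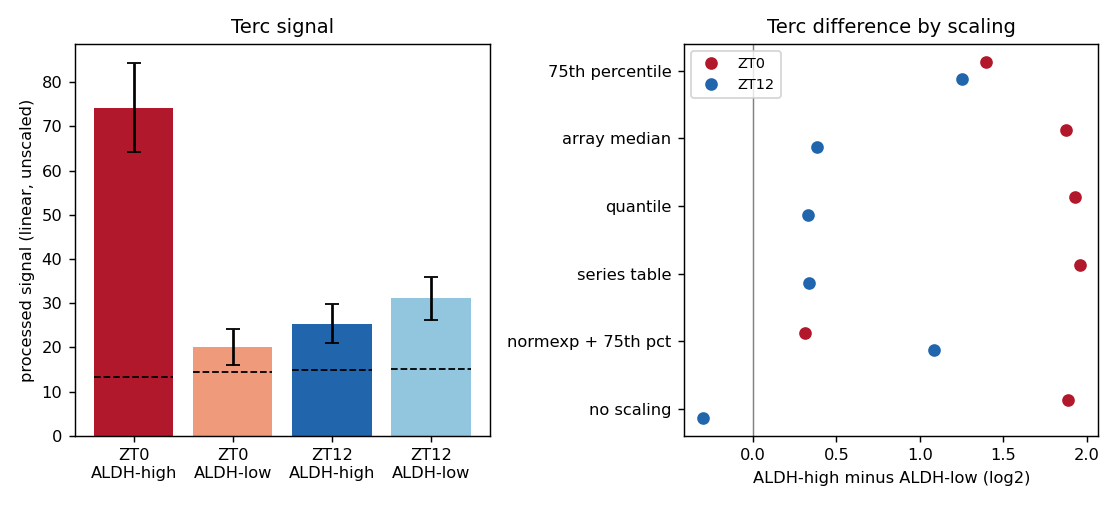
Left, bars give the processed signal of the Terc probe on each array (linear, unscaled, signal units), with the scanner software's error for 1 spot and a dashed mark at the lowest signal counted as well above background on that array. Right, points give the ALDH-high minus ALDH-low difference (log2) at ZT0 and ZT12 under 6 ways of scaling; the ZT0 values run from 0.31 to 1.96 and the ZT12 values from -0.30 to 1.25.

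After scaling, the log2 level of Terc was -2.02 in ZT0 ALDH-high cells and -3.41 in ZT0 ALDH-low cells. At ZT12 it was -2.63 in ALDH-high cells and -3.88 in ALDH-low cells. Both ALDH-high arrays thus stood above both ALDH-low arrays on this scale. The ALDH-high minus ALDH-low difference was 1.39 ± 0.35 at ZT0 and 1.25 ± 0.34 at ZT12 (scanner error of the 2 spots), or 2.63-fold and 2.38-fold. Terc was 1 of 16 among 19299 features that were at least 2-fold higher at both times (0.0829%), and its choice rested on that contrast.

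The Terc difference lay above the median of features of like level at ZT0 and close to that median at ZT12. It is the contrast on which Terc was chosen, so the comparison is a description and no test. The 3289 features within 0.5 log2 units of the mean level of Terc had a median ALDH difference of -0.73 at ZT0 and 1.21 at ZT12. Among all features measured, the difference of Terc was at percentile 85.7 at ZT0 and 75.8 at ZT12. The way arrays were scaled moved both values. At ZT0 the difference was 1.88 when arrays were scaled by their medians, 1.93 after quantile normalisation, 1.96 in the authors' series table, which is itself quantile normalised, and 0.31 after normexp background correction. At ZT12 the same settings gave 0.38, 0.33, 0.34 and 1.09, and the difference was -0.30 without scaling.

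**Figure D2:**
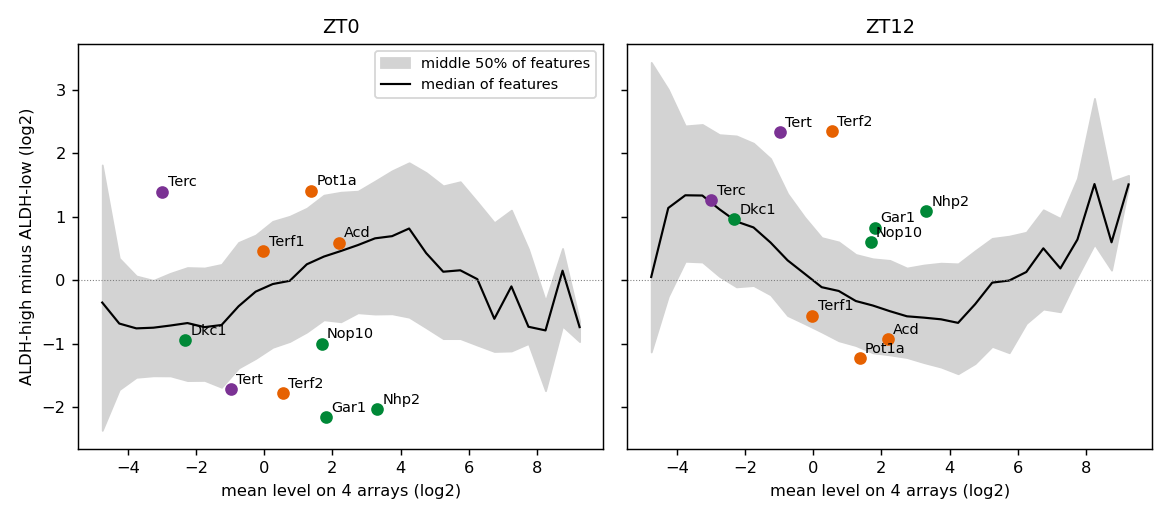
ALDH-high minus ALDH-low difference (log2) at each time against the mean scaled log2 level over the 4 arrays; the line and grey band are the median and the middle 50% of features in bins of level, and the points are the 10 genes (purple for Terc and Tert, green for H/ACA proteins, orange for shelterin). At ZT0 Terc (1.39) lies above the median of features of its level (-0.73), and at ZT12 its 1.25 lies close to their median (1.21).

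Tert, the catalytic subunit, gave a different answer with each of its probes. Probe 1, which had the highest mean level and stood for the gene, had a scaled log2 level of -1.59 in ZT0 ALDH-high cells and 0.13 in ZT0 ALDH-low cells. The ZT12 levels were -0.08 in ALDH-high cells and -2.40 in ALDH-low cells. It was lower in ALDH-high cells at ZT0 (-1.72 ± 0.21, scanner error) and higher in them at ZT12 (2.33 ± 0.22). The levels of ZT0 ALDH-low and ZT12 ALDH-high were the higher pair, so the arms overlapped.

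The probes on the Tert RefSeq transcript did not share this pattern. Probe 2 had a signal of 34.0 ± 4.45 in ZT0 ALDH-high and 17.7 ± 3.54 in ZT0 ALDH-low cells, a difference of 0.44 ± 0.34. Tert probe 3 had 27.7 ± 4.21 in ZT0 ALDH-high and 25.4 ± 4.18 in ZT0 ALDH-low cells, a difference of -0.37 ± 0.32. Neither was well above background in ZT12 ALDH-high cells, with signals of 7.97 and 7.03 there against 34.9 and 25.4 in ZT12 ALDH-low cells. No fold is given for ZT12, because the bound that the brighter array allows is under 1 on the scaled values. A direction for Tert messenger RNA in ALDH-high cells is therefore not settled by these probes.

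The genes of the 4 H/ACA proteins had differences of the same sign at each time. At ZT0 3 of the 4 were at least 2-fold lower in ALDH-high cells (Nop10, Nhp2 and Gar1; median of the 4 genes -1.52), against 29.2% of all features. At ZT12 1 of the 4 was at least 2-fold higher (Nhp2; median 0.89), against 28.9%. Negative at ZT0 and positive at ZT12, with any size, were all 4 and 48.3% of 19299 features. Terc, the RNA these proteins bind, was higher at both times, the contrast it was chosen on, and so differed from them in sign at ZT0 only.

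Gar1, which takes the place of the assembly factor Naf1 in the mature particle, had a scaled log2 level of 0.55 in ZT0 ALDH-high cells and 2.71 in ZT0 ALDH-low cells. At ZT12 it had 2.42 in ALDH-high cells and 1.60 in ALDH-low cells. The lowest array was ZT0 ALDH-high and the arms overlapped. Its difference was -2.16 ± 0.20 (scanner error) at ZT0 and 0.83 ± 0.20 at ZT12. A second Gar1 probe (mm9 chr3:129532258-129532317, minus strand) gave -2.61 and 0.81.

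Nhp2, which binds the complex through Nop10, had 2.17 in ZT0 ALDH-high and 4.20 in ZT0 ALDH-low cells on the scaled log2 scale. In ZT12 samples the level was 3.98 in ALDH-high and 2.90 in ALDH-low cells. Again ZT0 ALDH-high was the lowest array and ZT0 ALDH-low the highest. The difference was -2.04 at ZT0 and 1.08 at ZT12. The 1291 features of like level had medians of 0.64 and -0.60, on the other side of 0 at both times.

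Nop10, a small protein that bridges dyskerin and Nhp2, had 1.16 in ZT0 ALDH-high and 2.17 in ZT0 ALDH-low cells. At ZT12 it had 1.997 in ALDH-high and 1.40 in ALDH-low cells. Its differences, -1.004 at ZT0 and 0.60 at ZT12, had the signs of Nhp2 and were smaller. Dkc1, the pseudouridine synthase of the complex and the gene mutated in X-linked dyskeratosis congenita in humans, had -2.88 in ZT0 ALDH-high and -1.93 in ZT0 ALDH-low cells. At ZT12 it had -1.74 in ALDH-high and -2.69 in ALDH-low cells. Its differences of -0.95 and 0.96 lay close to the medians of features of like level, -0.69 and 0.97. A second Dkc1 probe was not well above background in ZT0 ALDH-high cells and was at least 2.59-fold lower there than in ZT0 ALDH-low cells, measured against the lowest signal counted as well above background.

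The negative ZT0 differences of these 4 genes held their sign under every scaling tried, and the positive ZT12 differences did not. With arrays scaled by their medians, the ZT12 difference was 0.08 for Dkc1, -0.28 for Nop10, 0.21 for Nhp2 and -0.05 for Gar1. Without scaling it was -0.60 for Dkc1, -0.96 for Nop10, -0.47 for Nhp2 and -0.73 for Gar1. The median of all 23520 features tested at ZT12 was 0.30 with the 75th percentile, -0.57 with the array median and -1.25 without scaling. At ZT0 it was -0.32, 0.17 and 0.18 in the same settings.

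Among the shelterin genes, Pot1a was at least 2-fold higher in ALDH-high cells at ZT0 and at least 2-fold lower at ZT12, and Terf2 did the opposite. Terf1 and Acd had the signs of Pot1a, shared by 36.4% of features, and passed 2-fold at neither time. Pot1a had a scaled log2 level of 2.17 in ZT0 ALDH-high and 0.76 in ZT0 ALDH-low cells. The levels at ZT12 were 0.65 in ALDH-high and 1.88 in ALDH-low cells. ZT0 ALDH-high and ZT12 ALDH-low were the higher pair, and the differences were 1.41 and -1.23.

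The 5 Pot1a probes fell into opposite patterns. Probe 2, also on NM_133931 (mm9 chr6:25694566-25694625, minus strand), gave 1.94 at ZT0 and -1.89 at ZT12, the signs of probe 1. Probe 3, annotated to an Ensembl transcript, gave -0.84 and 1.42. Of the remaining 2 probes, one was well above background in ZT0 ALDH-high and ZT12 ALDH-low cells, where it was at least 1.35-fold higher in ZT0 ALDH-high than in ZT0 ALDH-low cells, and the other on no array. The direction given for Pot1a is thus that of its NM_133931 probes.

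**Figure D3:**
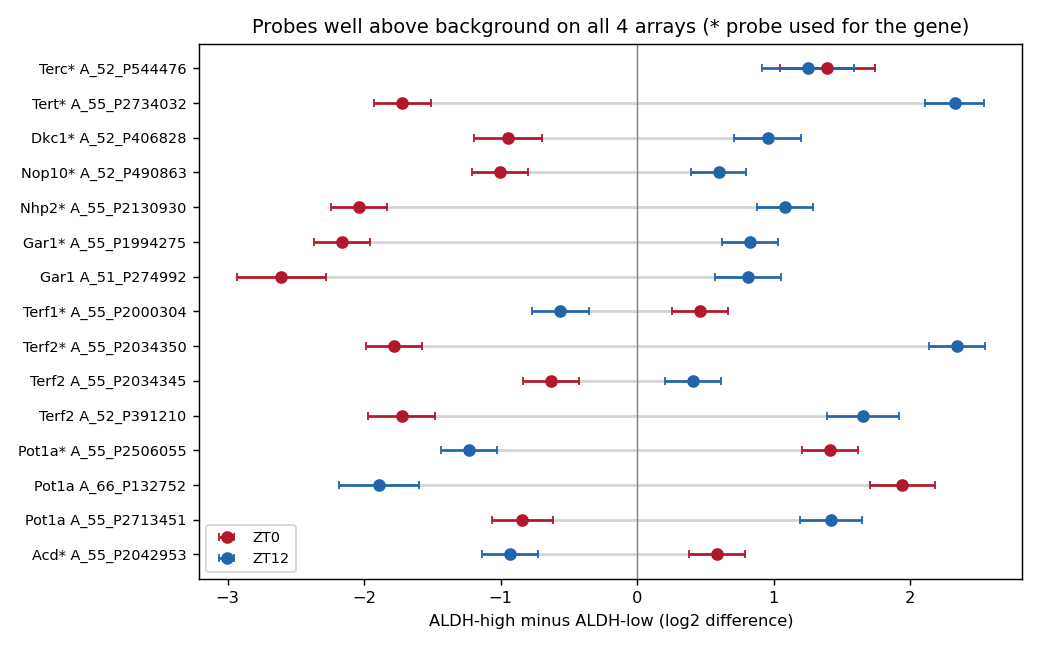
ALDH-high minus ALDH-low difference (log2) at ZT0 and ZT12 of the 15 probes well above background on all 4 arrays, 1 row per probe; bars are the scanner error of the 2 spots and an asterisk marks the probe that stood for its gene. Terc is the probe with both points right of 0, and Pot1a probe 3 (-0.84 at ZT0, 1.42 at ZT12) runs opposite to the other Pot1a probes.

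Terf2, which folds the chromosome end into a protective loop, had a scaled log2 level of -0.30 in ZT0 ALDH-high and 1.49 in ZT0 ALDH-low cells. Those at ZT12 were 1.66 in ALDH-high and -0.69 in ALDH-low cells. The differences were -1.78 and 2.34, and its other probes gave -0.63 and -1.72 at ZT0 and 0.41 and 1.65 at ZT12. All 3 probes therefore had the same signs, with a smaller size for the probe at mm9 chr8:109593822-109593881 on the minus strand.

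Acd had 2.46 in ZT0 ALDH-high and 1.88 in ZT0 ALDH-low cells, and 1.73 in ZT12 ALDH-high and 2.66 in ZT12 ALDH-low cells. Its differences of 0.59 and -0.93 were under 2-fold, and features of like level had medians of 0.43 and -0.46. Terf1, which limits telomere length and helps the replication fork through the repeats, had 0.30 in ZT0 ALDH-high and -0.15 in ZT0 ALDH-low cells. At ZT12 it had -0.40 in ALDH-high and 0.16 in ALDH-low cells, so that its differences of 0.46 and -0.56 were the smallest in size among the 10 genes at each time. For Terf1, Terf2, Acd and probe 1 of Tert and of Pot1a, the signs at both times were the same under all scalings tried.

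**Figure D4:**
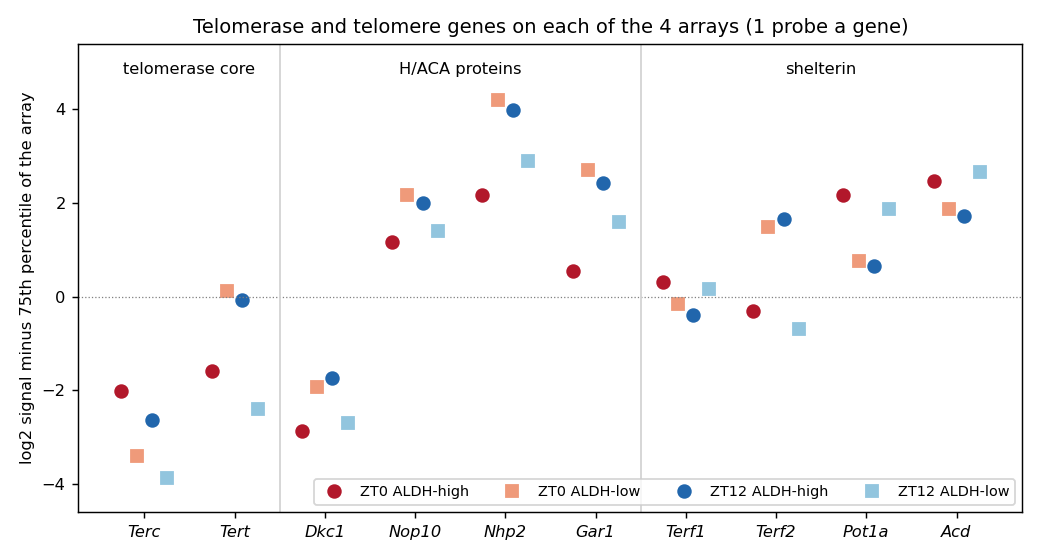
Scaled log2 level (log2 processed signal minus log2 of the array's 75th percentile) of the 10 genes on each of the 4 arrays, 1 probe per gene, with no error bars because each point is 1 spot; circles are ALDH-high and squares ALDH-low, red for ZT0 and blue for ZT12. Terc is the gene with both ALDH-high arrays above both ALDH-low arrays, while in the other 9 the arms overlap.

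Over the 10 genes, 2 passed 2-fold upward and 5 downward in ALDH-high cells at ZT0, against 20.0% and 29.2% of all features measured. The 2 higher were Terc and Pot1a, and the 5 lower were Tert, Nop10, Nhp2, Gar1 and Terf2. At ZT12, 4 were higher (Terc, Tert, Nhp2 and Terf2) and 1 was lower (Pot1a), against 28.9% and 17.9%. Because the genes were chosen on this contrast, these counts describe them and nothing is read from them. The median difference of the 10 genes was -0.97 at ZT0 and 0.89 at ZT12, and that of all features measured was -0.30 and 0.22.

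Opposite signs at the 2 times were the usual case on these arrays. Of 19299 features, 48.3% had a negative ALDH difference at ZT0 and a positive one at ZT12, as had Tert, Dkc1, Nop10, Nhp2, Gar1 and Terf2. A further 36.4% had the opposite order, positive at ZT0 and negative at ZT12, as had Terf1, Pot1a and Acd. Higher at both times, with any size, were 7.37%, and Terc, which was chosen for this, was the only one of the 10 genes there. Lower at both times were 7.85%, and 0 of the 10 genes. The opposite signs set ZT0 ALDH-high and ZT12 ALDH-low, both at position 1_2, against the arrays at position 1_1, so an ALDH by time difference and an array position difference cannot be told apart.

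Within 1 array position, arm and time change together. At position 1_1, ZT12 ALDH-high minus ZT0 ALDH-low was 0.78 for Terc and between -0.28 and 0.20 for the other 9 genes. At position 1_2, ZT0 ALDH-high minus ZT12 ALDH-low was 1.86 for Terc and between -1.05 and 0.81 for the others. Terc had the largest value of the 10 genes at each position, a measure that shares its arrays with the contrast used to choose it.

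Time of day was the contrast that the choice of genes did not use, although it shares all 4 arrays with it. In ALDH-high cells, 5 of the 10 genes were at least 2-fold higher at ZT12 than at ZT0 and 1 was lower, against 31.7% and 20.2% of all features. Those higher were Tert (1.51), Dkc1 (1.14), Nhp2 (1.81), Gar1 (1.88) and Terf2 (1.95), and the lower was Pot1a (-1.52). With arrays scaled by their medians the counts were 3 and 4. In ALDH-low cells, 1 was higher and 4 were lower, against 17.5% and 28.5%. Pot1a was the higher (1.12), and Tert (-2.53), Nhp2 (-1.30), Gar1 (-1.11) and Terf2 (-2.18) the lower. Other probes turned some of these values: Tert was -0.22 in ALDH-high cells with the mean of its probes, and Pot1a probe 3 gave 1.02 in ALDH-high and -1.24 in ALDH-low cells. In ALDH-low cells Tert probes 2 and 3 gave -0.13 and -1.10.

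The ZT12 minus ZT0 difference of Terc was -0.61 in ALDH-high and -0.47 in ALDH-low cells, and -1.14 and 0.35 when arrays were scaled by their medians. A fit with ALDH arm and time as terms (limma, Benjamini-Hochberg over 23520 features) called 0 features for time (0.0%), and 2 had an unadjusted p under 0.05. The fitted ZT12 minus ZT0 change of the 10 genes lay between -0.54 for Terc and 0.38 for Gar1, each with a standard error of 1.54 and an adjusted p of 1 in that limma fit. Each feature left 1 residual degree of freedom, which is its ALDH by time difference and equally its array position difference. From these limma gave all features 1 pooled error, so the standard error is that of the features as a whole. It measures the size of that difference and holds no spread between replicates. On simulated data with 200 changed features the fit recovered 0 at a change of 2 log2 units, 14 at 4 and 191 at 8, so changes of the size of these genes could not be detected.

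Genes that build and move telomerase had a negative median at ZT0, as the H/ACA genes had. Of 18 genes on the array, 17 were measured at ZT0, where 1 was higher and 9 were lower in ALDH-high cells (median -1.21), against 20.0% and 29.2% of all features. At ZT12, 4 of 18 were higher and 1 was lower (median 0.52), against 28.9% and 17.9%. Naf1, named above, had a difference of -2.06 at ZT0 and 0.01 at ZT12. Parn, the nuclease that trims the end of the telomerase RNA in human cells, had -2.26 and 0.42. Pinx1, which binds and inhibits telomerase in human cells, had -2.36 and 3.91. Smn1, the survival motor neuron protein of ribonucleoprotein assembly, had 0.04 and 0.33.

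The other genes of shelterin and of the CST complex, which finishes the lagging strand at telomeres, included none at least 2-fold apart between the arms. Of 6 genes, 5 were measured in that contrast, with 0 higher and 0 lower at each time and medians of 0.49 at ZT0 and -0.54 at ZT12. Of all features, 20.0% were higher and 29.2% lower at ZT0, and 28.9% and 17.9% at ZT12. With 5 genes, nothing is read from the counts of 0. Between times, Ctc1, the large CST subunit, passed 2-fold downward in ALDH-high cells (-1.01 for ZT12 minus ZT0). Tinf2, the hub of shelterin, had 0.55 and -0.07, and Terf2ip (RAP1) had 0.43 and -0.77. Obfc1 (STN1) had 0.49 and -0.59, and Ten1 had -0.08 and 0.51.

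Of 30 genes for telomere replication and repair, 4 were higher and 12 lower in ALDH-high cells at ZT0 (median -0.71), against 20.0% and 29.2% of all features. At ZT12, 5 were higher and 4 lower (median -0.10), against 28.9% and 17.9%. The RecQ helicases Wrn and Blm, which unwind structured DNA, had the widest swings named here, with -1.85 and -3.38 at ZT0 and 4.64 and 5.30 at ZT12. Ercc1, part of a structure-specific endonuclease, had -3.13 at ZT0 and -0.37 at ZT12. Xrcc5, the Ku80 subunit that binds DNA ends, had -2.68 and -0.21.

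Of 11 measured genes reported to regulate Tert transcription, 4 were higher and 3 lower in ALDH-high cells at ZT0, against 20.0% and 29.2% of all features. At ZT12, 3 were higher and 5 lower, against 28.9% and 17.9%. Myc, an activator of Tert, had a scaled log2 level of -2.01 in ZT0 ALDH-high and 0.69 in ZT0 ALDH-low cells, and 0.59 in ZT12 ALDH-high and -0.25 in ZT12 ALDH-low cells. Mxd1, which competes with Myc for Max and represses the gene, had 6.28 in ZT0 ALDH-high and 2.18 in ZT0 ALDH-low cells, and 2.74 in ZT12 ALDH-high and 5.97 in ZT12 ALDH-low cells. Myc was thus lowest, and Mxd1 highest, in ZT0 ALDH-high cells. Wt1 had differences of -0.99 and 2.28, and Gabpa, an ETS factor, had 0.66 and -1.13.

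Terc is not an ordinary messenger RNA, and 24 other small noncoding RNAs passed the background filter. Of 22 measured at ZT0, 2 were higher and 5 lower in ALDH-high cells (median -0.40), against 20.0% and 29.2% of all features. Of 23 measured at ZT12, 12 were higher and 0 were lower (median 1.12), against 28.9% and 17.9%. The entries for the spliceosomal U1 RNA had near-equal ZT12 differences, from 1.82 to 1.84, and each was counted on its own. Snora78, an H/ACA small nucleolar RNA, had 2.72 at ZT0 and -0.76 at ZT12. Vaultrc5, a vault RNA, had 0.13 and 1.54. Rnu12, the spliceosomal U12 RNA, had -1.46 and 1.23, and the C/D small nucleolar RNA Snord17 had -1.07 and 1.12. The ZT12 difference of Terc (1.25) was thus close to the median of this group, and its ZT0 difference (1.39) was of the other sign than the ZT0 median.

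The genes beside TERC in the human genome were also listed, but none of the 3 nearest entries on each side of mouse Terc in the RefSeq table belongs to them. Of 6 tested, 2 were higher and 0 lower in ALDH-high cells at ZT0 (20.0% and 29.2% of all features), and 1 was higher and 2 were lower at ZT12 (28.9% and 17.9%). Gpr160 had differences of 1.16 and -0.56, and Lrrc31 had -0.75 and 1.63. Phc3, a polycomb protein, had 0.85 and -1.33, and the kinase Prkci had -0.32 and -0.27.

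By the distance between centred scaled log2 values over the 4 arrays, the 5 named features most like Terc among 12264 were Olfr223 (distance 0.31), Ldhc (0.38), Stag3 (0.42), Cd3d (0.43) and Pip5kl1 (0.49). Their positive differences at both times follow from that choice. Olfr223, an olfactory receptor gene, had 1.24 at ZT0 and 1.15 at ZT12. Ldhc, a lactate dehydrogenase of the testis, had 0.87 and 1.32, and Cd3d, a chain of the T cell receptor complex, had 1.90 and 1.03. By contrast, 8 of the 9 T and NK markers measured at ZT0 were at least 2-fold lower in ALDH-high cells, against 29.2% of all features. At ZT12 all 8 measured were at least 2-fold higher, the direction of Cd3d, against 28.9% of all features.

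The sorted fractions held markers of several cell types, in amounts that differed between the arrays. The epithelial list summed to 12.01 in ZT0 ALDH-high, 195.9 in ZT0 ALDH-low, 94.5 in ZT12 ALDH-high and 86.3 in ZT12 ALDH-low cells, in units of the array's 75th percentile, and 9 of 9 measured markers were lower in ALDH-high cells at ZT0. The cell cycle list had 6 of 12 lower and 0 higher there (median -0.94), and 2 higher and 0 lower at ZT12 (median 0.70). The median difference of neutrophil markers was 2.51 at ZT0 and -0.77 at ZT12, with 5 of 9 higher and 1 lower at ZT0 and 1 higher and 4 lower at ZT12. At ZT12 the epithelial list had 2 of 10 higher and 0 lower (median 0.61). For all of these counts, the shares of all features were 20.0% higher and 29.2% lower at ZT0, and 28.9% and 17.9% at ZT12.

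Markers of T and NK cells had medians of -3.35 at ZT0 and 5.39 at ZT12, those of B cells -2.60 and 5.59, and those of erythroid cells -5.43 and 6.16. The T and NK list summed to 16.8 in ZT0 ALDH-high and 41.5 in ZT0 ALDH-low cells, and to 53.5 in ZT12 ALDH-high and 4.23 in ZT12 ALDH-low cells. Macrophage markers had medians of -2.32 and 1.90, fibroblast markers -0.28 and 0.24, and endothelial markers 0.54 and -0.04. The epithelial, cell cycle, T and NK, B cell, erythroid, macrophage and fibroblast medians thus had the signs of the H/ACA genes. The neutrophil and endothelial medians had those of Pot1a. The endothelial medians rest on 3 genes, and the fibroblast medians were close to those of all features measured (-0.30 and 0.22). Unlike its median, the neutrophil list summed higher in ALDH-high cells at both times. Its sums were 2490 against 1587 in ALDH-low cells at ZT0, and 2226 against 1472 at ZT12. The epithelial marker Epcam was well above background on all 4 arrays, as were Mki67, Cd3e, Ly6g, Csf1r, Hba-a1, Col1a1 and Pecam1. The part of these cell types in the differences of the telomere genes was not tested.

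The promoters of 8 of the 10 genes were found in a RefSeq table (GRCm38.p6, from 250 bases before to 50 bases after the start site). Those of Nhp2 and Gar1 are printed because they held the ETS core CCGGAAG, shown in capitals (CTTCCGG where it lies on the other strand). Tert, Dkc1, Nop10 and Terf2 had ALDH differences of the same signs without this motif, and a link of motif and values was not tested. The motif started 23 bases before the start site in Nhp2 (chr11:51619523-51619822, plus strand) and 43 bases before it in Gar1 (chr3:129831347-129831646, minus strand).
Nhp2 promoter: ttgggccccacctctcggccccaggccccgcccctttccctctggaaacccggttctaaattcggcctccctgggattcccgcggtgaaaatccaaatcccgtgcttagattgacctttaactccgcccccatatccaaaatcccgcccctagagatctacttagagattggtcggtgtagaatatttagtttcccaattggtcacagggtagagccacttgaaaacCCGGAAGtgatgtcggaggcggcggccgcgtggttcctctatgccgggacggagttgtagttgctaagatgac
Gar1 promoter: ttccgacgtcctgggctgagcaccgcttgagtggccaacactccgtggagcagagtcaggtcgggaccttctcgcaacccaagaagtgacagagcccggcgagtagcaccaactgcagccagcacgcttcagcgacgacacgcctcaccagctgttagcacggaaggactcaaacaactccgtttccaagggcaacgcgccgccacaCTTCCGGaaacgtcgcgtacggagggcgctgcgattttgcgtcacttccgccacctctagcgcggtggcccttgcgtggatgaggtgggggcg

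Motifs were searched as exact letters on both strands of the 300 bases, and no searched motif contains another. CCGGAAG was in 2 of the 8 promoters, against 8.86% of all 32851 windows. The GC box GGGCGG was in 4 (Nhp2, Pot1a, Terf2 and Tert), against 35.7%, and CCAAT was in 5 (Acd, Dkc1, Nhp2, Nop10 and Terf2), against 37.4%. The E-box CACGTG was in 0 of 8, against 7.15%, and the telomere repeat TTAGGG in 0 of 8, against 10.6%. A match describes letters in these windows and is no evidence of binding.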

How the data were processed

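The members and gene lists were chosen with earlier results of these data known. Per the labels, total RNA was amplified and labelled with a low-input kit. The deposited scanner files of the authors hold processed signals that are intensities on a linear scale, background-subtracted within each array and not normalised between arrays, per the file headers; the headers name Agilent Feature Extraction 10.7.1.1 and the submitters' processing notes 9.5.1.1. The authors' deposited series table also holds intensities, whose 4 columns share a distribution, so that it is quantile normalised.

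From these, control spots were left out. Spots flagged as outliers were left out too, unless all spots of the probe on that array were flagged. Each probe of the 10 genes has 1 spot, so none of theirs was left out. Then log2 signal minus log2 of the array's 75th percentile was taken with no pseudocount. The probe with the highest mean level stood for a gene. Features well above background on at least 2 arrays (23520) entered limma 3.58.1 in R 4.3.3 (lmFit, eBayes, two-sided, Benjamini-Hochberg, threshold 0.05), which was tested on simulated data. Alternatives were the array median, quantile normalisation, normexp (offset 50), the series table, filters, the mean of all probes and outlier spots kept. No scaling and each other probe were added after seeing the data. All 10 members were named, with, per list, the 2 largest and 2 smallest mean ALDH differences, and the 5 features most like Terc; of the markers only list summaries and defining markers are given. Positions are mm9 as in the files. Replicate spots had median SDs between 0.0384 and 0.0461 log2 units over 300 probes, which says nothing of the spread between tumours.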

Additional observations from a re-analysis of the deposited data

Results flagged for a closer look

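In 4 of the 10 genes the ALDH difference of the probe that stood for the gene was at least 2-fold in opposite directions at ZT0 and ZT12. The ZT0 difference minus the ZT12 difference was -4.05 log2 units for Tert, -3.12 for Nhp2, -4.13 for Terf2 and 2.64 for Pot1a. With 1 array per group these differences between times were not tested, and they cannot be told apart from array position. Of 19299 features, 17.5% passed 2-fold in both, downward at ZT0 and upward at ZT12, and 15.9% did the reverse. Not all probes and scalings gave the same directions for the 4 genes. Tert probes 2 and 3 gave 0.44 and -0.37 at ZT0. Pot1a probe 3 gave -0.84 at ZT0 and 1.42 at ZT12, while Pot1a probe 2 had the signs of probe 1. For Nhp2 the ZT12 difference was 0.21 with the array median and -0.47 without scaling.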

How the results depend on the processing

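Of 516 recomputed single values, 411 counted as the same, 97 moved and 8 called values changed sign. Of 80 recomputed counts, 58 stayed within 1.5 times and 22 moved. Both totals include settings that returned the main result for these genes unchanged (outlier spots kept and both changes of filter). Keeping outlier spots could not change these genes, since each of their probes has 1 spot. The mean of probes likewise left genes with 1 probe unchanged. Fitted time changes counted as the same because no adjusted p was under 0.05, whatever their size. The 411 are therefore no measure of stability. Among probes, Tert probe 2 gave 0.44 at ZT0, and Pot1a probe 3 gave -0.84 at ZT0, 1.42 at ZT12, 1.02 for ZT12 minus ZT0 in ALDH-high and -1.24 in ALDH-low cells. Without scaling, the ZT12 difference was -0.30 for Terc and -0.47 for Nhp2. With the mean of all probes, ZT12 minus ZT0 of Tert in ALDH-high cells was -0.22. Counts of members are given next. Higher at ZT0 (2) became 1 with normexp. Higher at ZT12 (4) became 2 with the array median and 0 without scaling. Lower at ZT12 (1) became 3 with the array median or no scaling, 2 with normexp, and 0 with quantile normalisation or the mean of probes. For time in ALDH-high cells, higher (5) became 3 with the array median and 1 without scaling, and lower (1) became 4 with either, 2 with the series table or quantile normalisation, and 0 when probes were averaged. For time in ALDH-low cells, higher (1) became 3 with the array median or no scaling and 0 with the series table or quantile normalisation or when probes were averaged, and lower (4) became 2 with the array median or no scaling. The cause was not tested. The time fit called 0 features under all alternatives run, with between 0 and 17 at an unadjusted p under 0.05. No paired analysis was possible because each group has 1 array and so no replicate number to block on; the time fit already holds ALDH arm as a term. Low signals limit Terc, Dkc1 and Tert probes 2 and 3.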

Other observations

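The run CCTAACCCT of the Terc probe, looked up after its values were seen, is in 18 of 56605 probes (0.0318%). Of these, 10 were well above background on all 4 arrays, Terc included. Of the 9 others, 3 had positive ALDH differences of any size at both times, as had 7.15% of all 27238 probes well above background on all 4 arrays. 1 of these 3 was 2810459M11Rik, with 1.28 at ZT0 and 0.95 at ZT12. The Terc probe was the only 1 of the 10 to be at least 2-fold higher at both times, which is the contrast it was chosen on.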
